A study of Mus musculus with 54 samples.

Results

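The 10 genes that mark the identity of Purkinje cells were followed through 3 ages of mouse cerebellum in which Rnaseh2b was deleted alone or together with Atm or p53. The members were Calb1, Pcp2, Pcp4, Slc1a6, Itpr1, Foxp2, Plcb4, Ppp1r17, Rora and Homer3. They were taken by name from the log2 CPM tables (read counts scaled to library size, on a log2 scale). All 10 were found among the 19232 genes listed at P5, the 19432 at P28 and the 17827 at 9 weeks, and all 10 passed the filter on low values at each age.

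RNA came from whole cerebellum of 54 mouse samples. Control samples are labelled only as such. The mutant groups are labelled RnaseH2B Nes-cre, Atm Nes-cre, p53 Nes-cre, RnaseH2B,Atm Nes-cre and RnaseH2B,p53 Nes-cre, and are written here Rnaseh2b, Atm, p53, Rnaseh2b/Atm and Rnaseh2b/p53. Nes-cre is a Cre transgene under Nestin sequences, which acts in neural progenitors and so is not limited to Purkinje cells. The P5 set, from total RNA, held 3 control libraries, 3 of each single deletion and 4 of each double one. The P28 set, from poly-A RNA, held 5 libraries in each of 4 groups (control, Rnaseh2b, Atm, Rnaseh2b/Atm). At 9 weeks there were 7 control and 7 Rnaseh2b libraries, from total RNA. Whether each replicate is its own animal is not stated, and the p-values therefore cover the spread of these libraries, which may be technical.

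Purkinje cells are the large GABA neurons that carry the output of the cerebellar cortex to the deep nuclei. Glutamate from climbing fibres and granule cell axons drives them, and the receptor mGluR1 works through a phospholipase C, inositol trisphosphate and release of stored calcium, so the cells hold large amounts of the enzymes, channels and buffers of calcium signalling. During the first postnatal weeks they grow their dendrites and secrete Sonic hedgehog, which drives division of the granule cell progenitors above them.

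The transcription factor Rora is needed for Purkinje cell maturation, and its protein binds DNA at the sequence AGGTCA. The 250 bases upstream of annotated starts were therefore searched for AGGTCA and for GGGTCA on both strands, in RefSeq promoter windows of build GRCm38.p6. Of the 10 members, 6 had an entry (Plcb4, Pcp2, Homer3, Rora, Slc1a6 and Pcp4), with 10 windows in all. AGGTCA was present in 5 of these windows, belonging to Pcp2, Pcp4 and Homer3. Of all 32851 windows in the table, 14% held AGGTCA and 11.6% held GGGTCA. Some windows of Pcp2 overlap, so the same match is counted in more than 1 of them. The windows of Pcp2 (chr8:3625548-3625797, minus strand) and Pcp4 (chr16:96467356-96467605, plus strand) are shown because they hold the match, and that of Slc1a6 (chr10:78780246-78780495, plus strand) because it rose beside Pcp4 and Rora at P5 and holds no match. Each runs 5′ to 3′ toward the start of its gene, with the match in capitals.
Pcp2: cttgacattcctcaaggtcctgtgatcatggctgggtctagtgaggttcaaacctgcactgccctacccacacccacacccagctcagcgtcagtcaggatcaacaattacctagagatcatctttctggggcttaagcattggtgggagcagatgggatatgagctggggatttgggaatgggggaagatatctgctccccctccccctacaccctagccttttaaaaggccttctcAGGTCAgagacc
Pcp4: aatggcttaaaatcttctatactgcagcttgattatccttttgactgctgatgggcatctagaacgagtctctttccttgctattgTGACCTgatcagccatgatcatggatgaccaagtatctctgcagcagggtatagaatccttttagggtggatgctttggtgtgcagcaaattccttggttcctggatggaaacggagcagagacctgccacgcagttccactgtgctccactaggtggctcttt
Slc1a6: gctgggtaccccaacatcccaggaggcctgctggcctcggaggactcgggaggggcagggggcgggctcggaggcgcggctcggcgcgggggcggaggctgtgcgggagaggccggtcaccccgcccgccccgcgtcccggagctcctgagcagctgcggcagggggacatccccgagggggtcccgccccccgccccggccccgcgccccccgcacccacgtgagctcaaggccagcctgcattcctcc
In Pcp2 the match began 12 bases before the start and read AGGTCA on the strand of the gene. In Pcp4 it began 164 bases before the start and read TGACCT, which is AGGTCA on the other strand. A match describes these letters and is no evidence that a factor binds there.

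Libraries held 48.2 to 95.1 M reads in genes at P5, apart from Rnaseh2b/p53 3 (711 M), and 24.1 to 89.7 M at P28. Rnaseh2b itself averaged 1.91 to 2.20 log2 CPM in the P5 groups labelled with its deletion against 4.27 in control, 0.90 and 1.12 against 2.84 at P28, and 2.45 against 3.47 at 9 weeks. Trp53, the p53 gene, averaged 1.64 and 2.02 log2 CPM in the groups labelled p53 and Rnaseh2b/p53 against 3.71 in control. The Atm transcript averaged 4.79 log2 CPM in the P28 group labelled Atm, against 4.83 in control. In the P28 Rnaseh2b/Atm group it averaged 4.05, with a range of 3.97 to 4.10 that lay below all other P28 libraries. At P5 it averaged 5.58 in Atm, 5.54 in Rnaseh2b/Atm and 5.87 in control, with overlapping ranges. The overlap with control came from Control 2 (5.35), and the other controls measured 6.22 and 6.05. Rnaseh2b/Atm ran from 5.28 to 5.70, and Atm 2 and Atm 3 measured 5.70 and 5.995, below those controls. Atm 3 lay within the Rnaseh2b range of 5.93 to 6.13. The Atm label rests on the submitters' word. At P5, 2 libraries stood apart from the rest of their groups in the member genes, Control 2 and Atm 1, and results that rest on them are given with and without both. Both were the highest P5 libraries for the midbrain marker list (Otx2, Pax7, Tal1, Gata3, Lmx1b, Th, Slc6a3, Foxa1 and Pou4f1), with means of 3.33 and 3.75 log2 CPM against 0.35 to 3.21 in the other P5 libraries. Their granule neuron markers averaged 4.11 and 2.42 log2 CPM, against 4.08 to 5.59 elsewhere, so that Atm 1 was the lowest.

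Per length of transcript, in FPKM (fragments per kilobase of transcript, scaled to library size), Pcp4 was the highest member in P5 controls at 69.3 ± 12.5 (SD, n = 3). Calb1 (45.3 ± 20.6), Itpr1 (40.4 ± 21.0), Slc1a6 (19.2 ± 5.3), Pcp2 (15.2 ± 8.7), Plcb4 (14.2 ± 0.44), Rora (12.8 ± 3.2), Homer3 (9.33 ± 3.70) and Foxp2 (8.12 ± 1.26) followed, and Ppp1r17 was lowest at 1.25 ± 0.73. In that order the ranges of neighbours overlapped, except those of Foxp2 and Ppp1r17. In P28 controls Itpr1 was highest, at 285 ± 19.9 (SD, n = 5). It was followed by Pcp2 (153 ± 18.5), Calb1 (130 ± 10), Ppp1r17 (102 ± 7.2), Homer3 (91.7 ± 6.2), Slc1a6 (82.3 ± 8.8), Pcp4 (54.9 ± 9.8), Plcb4 (34.4 ± 2.2), Rora (24.9 ± 2.7) and Foxp2 (0.904 ± 0.145). There Pcp2 and Calb1 overlapped, as did Ppp1r17 with Homer3, Homer3 with Slc1a6 and Slc1a6 with Pcp4, and the other neighbours did not. In 9-week controls Itpr1 was again highest at 341 ± 38.8 FPKM (SD, n = 7), then Calb1 at 141 ± 19.9, Pcp2 at 72.0 ± 12.5 and Foxp2 lowest at 1.76 ± 0.29. The other 6 members lay between 40.8 and 48.9 FPKM, with overlapping ranges. The deposited 9-week FPKM are on a shifted scale, with values below 0 for some genes, so this order holds only for the shifted values. The ages were deposited as separately normalised tables, P28 from poly-A RNA and the others from total RNA, and their levels were not compared.

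**Figure D1:**
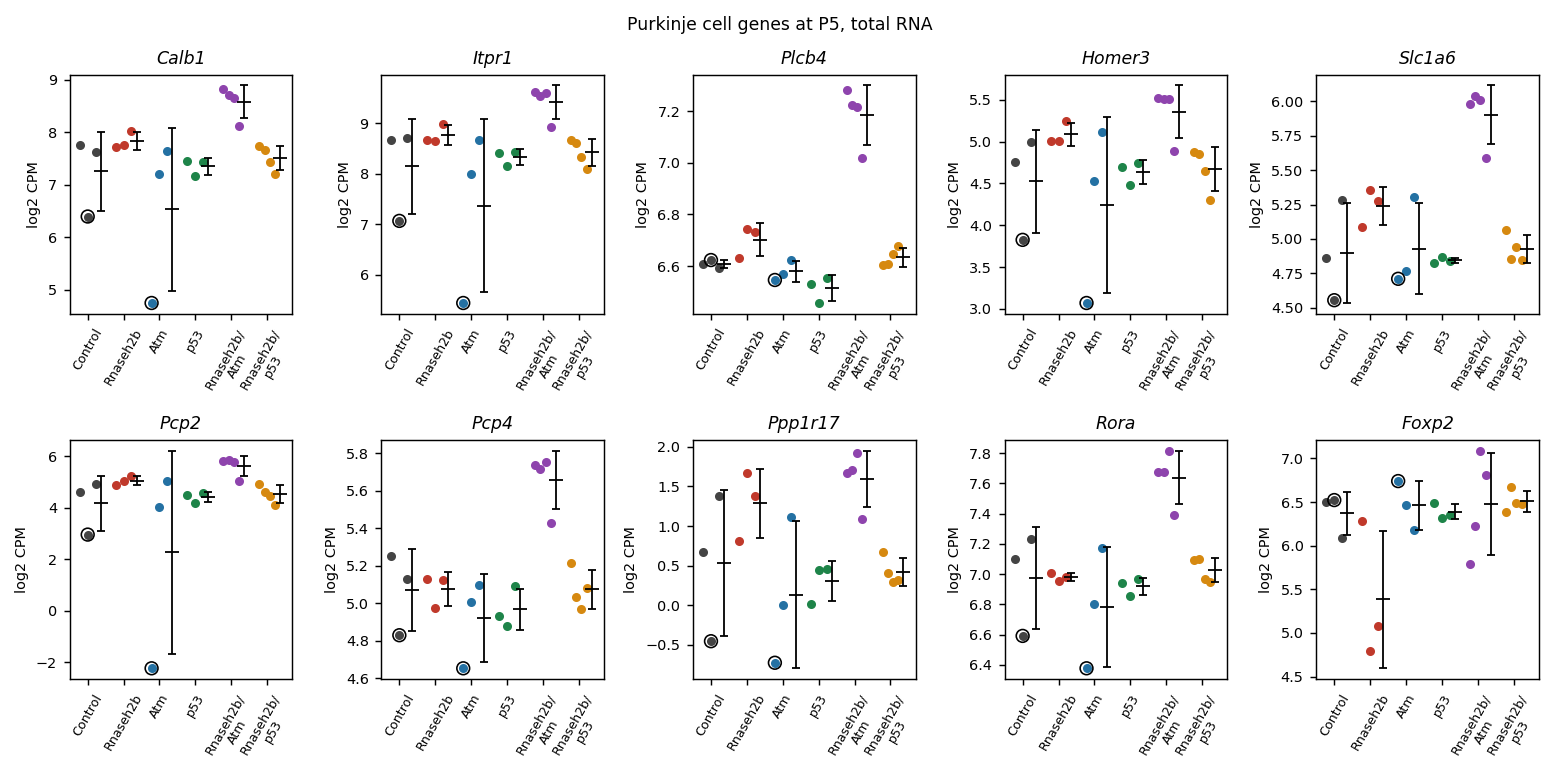
Values of the 10 members in each P5 library, in log2 CPM, with 1 panel per gene and its own axis. Points are libraries, bars the group mean and SD, and circles mark Control 2 and Atm 1. In 9 panels, all but Foxp2, the Rnaseh2b/Atm group has the highest mean, and its 4 libraries lie above all 3 controls in 7 of them.

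At P5, the age at which granule cells are still dividing, 9 of the 10 Purkinje cell genes had their highest mean in the Rnaseh2b/Atm cerebellum. Against control, 4 of the 10 members rose: the glutamate transporter Slc1a6, the nuclear receptor Rora, the calmodulin-binding peptide Pcp4 and the phospholipase Plcb4. This compares with 9.86% of the 15421 genes tested, of which 6.48% were called higher. None of the 10 fell. The median change of the members was 0.92 log2, beside 0.01 over all tested genes. In whole tissue, more or fewer Purkinje cells and more or less RNA per Purkinje cell cannot be told apart.

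Plcb4, the phospholipase C that follows mGluR1 in many Purkinje cells, was the steadiest of them. It measured 6.61, 6.62 and 6.59 log2 CPM in the 3 controls and 7.28, 7.22, 7.22 and 7.02 in the 4 Rnaseh2b/Atm libraries. Every other P5 library lay between 6.46 and 6.75, below all 4. The rise over control was 0.58 ± 0.05 log2 (SE; limma, adjusted p = 3.1e-05), and Control 2 and Atm 1, so low for other members, did not stand out for it.

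Slc1a6, which clears glutamate from Purkinje cell synapses, measured 4.86, 4.55 and 5.28 log2 CPM in control and 5.98, 6.04, 6.01 and 5.59 in Rnaseh2b/Atm. The groups did not overlap, and the rise was 1.01 ± 0.16 log2 (limma, adjusted p = 0.00133). Pcp4 measured 5.25, 4.83 and 5.13 in control and 5.74, 5.72, 5.75 and 5.43 in Rnaseh2b/Atm, a rise of 0.59 ± 0.12 (limma, adjusted p = 0.00571). Rora measured 7.10, 6.59 and 7.23 in control and 7.68, 7.68, 7.81 and 7.39 in Rnaseh2b/Atm, a rise of 0.66 ± 0.16 (limma, adjusted p = 0.0149). In all of these Rnaseh2b/Atm 4 was the lowest of its group and still above every control.

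The calcium buffer Calb1 and the inositol trisphosphate receptor Itpr1 did not overlap between these groups either, and Control 2 was low for both. Calb1 measured 7.75, 6.39 and 7.63 log2 CPM in control and 8.83, 8.72, 8.66 and 8.13 in Rnaseh2b/Atm. Its difference of 1.33 ± 0.48 log2 was not called (limma, adjusted p = 0.09). Itpr1 measured 8.66, 7.07 and 8.70 in control and 9.61, 9.53, 9.60 and 8.93 in Rnaseh2b/Atm, a difference of 1.27 ± 0.54 (adjusted p = 0.138).

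Pcp2, a modulator of G proteins found almost solely in Purkinje cells and retinal bipolar cells, had the widest range of any member. It measured 4.63, 2.96 and 4.92 log2 CPM in control, 5.80, 5.87, 5.78 and 5.02 in Rnaseh2b/Atm, and -2.23, 4.05 and 5.03 in the libraries labelled Atm. The lowest of these, Atm 1, held 21 reads of Pcp2 among 79.4 M, where Control 2 held 547 and Control 1 held 1797. The difference of 1.45 ± 1.10 log2 between Rnaseh2b/Atm and control was not called (limma, adjusted p = 0.402). Of the others, the mGluR1 scaffold Homer3 (0.84 ± 0.36) and the phosphatase inhibitor Ppp1r17 (1.06 ± 0.40) were not called, and for each of them 1 Rnaseh2b/Atm library lay below the highest control. For 7 of the 10 members every Rnaseh2b/Atm library lay above every control, beside 18.3% of tested genes that did not overlap in either direction.

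Without Control 2 and Atm 1, 7 of the members rose in Rnaseh2b/Atm against control. The additions were Calb1, by 0.89 ± 0.18 log2, Itpr1, by 0.74 ± 0.21, and Pcp2, by 0.85 ± 0.27. For these 3 the difference and its error were both smaller than with the libraries kept. The 2 libraries were set apart by their values in the member genes themselves. A smaller error without them follows in part from that choice, here and in the comparisons below. When only the groups compared entered the fit, Plcb4 alone was called, and with the midbrain list mean as a covariate 8 were. The share of all genes called in these other fits was not counted. The 9.86% above belongs to the fit of all P5 libraries without a covariate.

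The compound mutant was also set against each single mutant, in comparisons that share the Rnaseh2b/Atm libraries. Against the libraries labelled Atm, 7 of the 10 members rose, beside 9.50% of all tested genes (7.48% higher). For 6 of the 10 the groups did not overlap, beside 16.8% of tested genes. The risen genes were Calb1 (2.05 ± 0.48 log2), Itpr1 (2.04 ± 0.54), Ppp1r17 (1.46 ± 0.40), Slc1a6 (0.98 ± 0.16), Rora (0.85 ± 0.16), Pcp4 (0.74 ± 0.12) and Plcb4 (0.61 ± 0.05), all by limma. Pcp2 (3.34 ± 1.10, adjusted p = 0.0689) and Homer3 (1.12 ± 0.36, adjusted p = 0.0587) were not called. Without Control 2 and Atm 1 the Calb1 and Itpr1 rises came to 1.16 ± 0.18 and 1.08 ± 0.21, Pcp2 also rose, by 1.08 ± 0.27, and 8 members were called. With only these groups in the fit 3 were called. In neither of these other fits was the share of all genes called counted.

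Against Rnaseh2b alone, 4 of the 10 rose, beside 2.04% of all tested genes (1.38% higher). These were again Slc1a6 (0.67 ± 0.16 log2, limma adjusted p = 0.0394), Rora (0.66 ± 0.16), Pcp4 (0.58 ± 0.12) and Plcb4 (0.48 ± 0.05, limma adjusted p = 0.000638). Calb1 was higher by 0.75 ± 0.48, with no overlap between the groups, and was not called in the fit of all P5 libraries. Calb1 and the 4 called genes were the 5 members without overlap, beside 30.1% of tested genes. Without Control 2 and Atm 1, which belong to neither group but enter the shared estimate of spread, 7 members were called, and with only the groups compared in the fit 6 were, Calb1 and Itpr1 being added. Leaving out single libraries of these groups gave 1 to 4 calls, with 1 call each without Rnaseh2b 2, Rnaseh2b 3 or Rnaseh2b/Atm 2 and 2 without Rnaseh2b/Atm 3. For none of these other fits was the share of all genes called counted, and the 2.04% belongs to the fit of all P5 libraries.

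None of the single mutant groups, Rnaseh2b, those labelled Atm, or p53, had a called member against control at P5 (limma). Against control the calls over all genes were 0.681% for Rnaseh2b, 0% for libraries labelled Atm and 0.175% for p53. At an unadjusted p under 0.05 there were 1, 0 and 0 members, and voom, which weights the recovered reads, called 0 in each. Rnaseh2b/p53 gave no called member either, whether against control (0.428% of genes called), p53 (0.188%) or Rnaseh2b (3.02%), with 0, 1 and 2 members at an unadjusted p under 0.05 and 0 with voom. For Rnaseh2b the largest differences were those of Foxp2 (-0.99 ± 0.33 log2, adjusted p = 0.19), Pcp2 (0.88 ± 1.18) and Ppp1r17 (0.75 ± 0.43), by limma. In that order they came to -0.91 ± 0.37, 0.27 ± 0.29 and 0.26 ± 0.33 without Control 2 and Atm 1, and none was called. Without Rnaseh2b 1 the Foxp2 difference was -1.44 ± 0.28 and was called (limma, adjusted p = 0.0298). For Calb1 the 95% interval of the Rnaseh2b difference ran from -0.52 to 1.67 log2, and for Plcb4 from -0.03 to 0.22. For Rnaseh2b/p53 they ran from -0.77 to 1.28 for Calb1 and from -0.09 to 0.14 for Plcb4.

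Foxp2, a forkhead transcription factor, went its own way among the members at P5. It measured 6.5, 6.52 and 6.09 log2 CPM in control and 6.28, 4.80 and 5.07 in Rnaseh2b. In Rnaseh2b/Atm it measured 5.79, 6.22, 7.09 and 6.82. Rnaseh2b 2 and 3 were the lowest of all 20 libraries, and Atm 1, lowest of all for 7 other members, was among the highest at 6.74. Foxp2 is known from the midbrain and brainstem as well as from Purkinje cells. The midbrain list mean was 0.78 and 0.48 log2 CPM in Rnaseh2b 2 and 3, against 0.35, 1.41 and 3.33 in control. With that mean as a covariate, Foxp2 differed by -0.89 ± 0.34 log2 in Rnaseh2b against control (limma, adjusted p = 0.199). The part of such tissue in the Foxp2 values was not tested beyond this fit. Foxp2 was higher in Rnaseh2b/p53 than in Rnaseh2b by 1.12 ± 0.31 log2, which was not called (limma, adjusted p = 0.0581). It was called without Control 2 and Atm 1 (limma, adjusted p = 0.0405) or without Rnaseh2b 1 (0.0090). With the midbrain covariate it was called too, at 1.04 ± 0.31 log2 (limma, adjusted p = 0.0438).

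Beyond the members, 25 other Purkinje cell genes of calcium signalling, transcription and synapse could be tested at P5. In Rnaseh2b/Atm against control 9 rose and 1 fell, beside 9.86% of all genes called, with a median of 0.44 log2. The largest of the 6 with the smallest adjusted p was Shh, the Purkinje-derived mitogen of granule progenitors, which rose by 1.13 ± 0.16 log2 (limma, adjusted p = 0.00065). The Notch ligand Dner rose by 0.31 ± 0.05, the transcription factor Ebf2 by 0.52 ± 0.10 and the calcium release channel Ryr1 by 0.57 ± 0.14. Lhx5, a factor of early Purkinje cells, fell by 0.56 ± 0.13. Against libraries labelled Atm 8 rose and 1 fell, beside 9.50% of all genes called. Against Rnaseh2b 3 rose, Dner and Rgs8 among them, and none fell, beside 2.04% of all genes called. In Rnaseh2b against control 0 of the 25 were called (limma), beside 0.681% of all genes, and 3 had an unadjusted p under 0.05.

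Markers of other cell types were read in Rnaseh2b/Atm against control, where 9.86% of all genes were called. None of the 7 granule neuron markers was called in Rnaseh2b/Atm against control at P5 (limma, 0 at an unadjusted p under 0.05), with summed levels of 212 to 321 CPM against 289 to 660 in control. Of 6 microglia markers 4 rose, from summed levels of 81.2 to 98.8 CPM in control to 122 to 138. Of 6 Bergmann glia and astrocyte markers 1 rose and none fell, and of 6 granule progenitor markers 1 fell and none rose. None of the 8 midbrain, 8 medulla and pons, 6 choroid plexus and 6 oligodendrocyte markers was called (limma), and 3 choroid plexus and 1 oligodendrocyte markers had an unadjusted p under 0.05. Of 7 molecular layer interneuron and Golgi markers 1 was called. Against libraries labelled Atm, 5 of 6 choroid plexus, 4 of 6 microglia and 2 of 6 Bergmann glia and astrocyte markers were called. There 1 of 7 interneuron and Golgi markers was called too, and no marker of the remaining lists, beside 9.50% of all genes. No gene of these lists was at 0 reads in every library of a group. The part of these shifts in the member values was not tested.

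**Figure D2:**
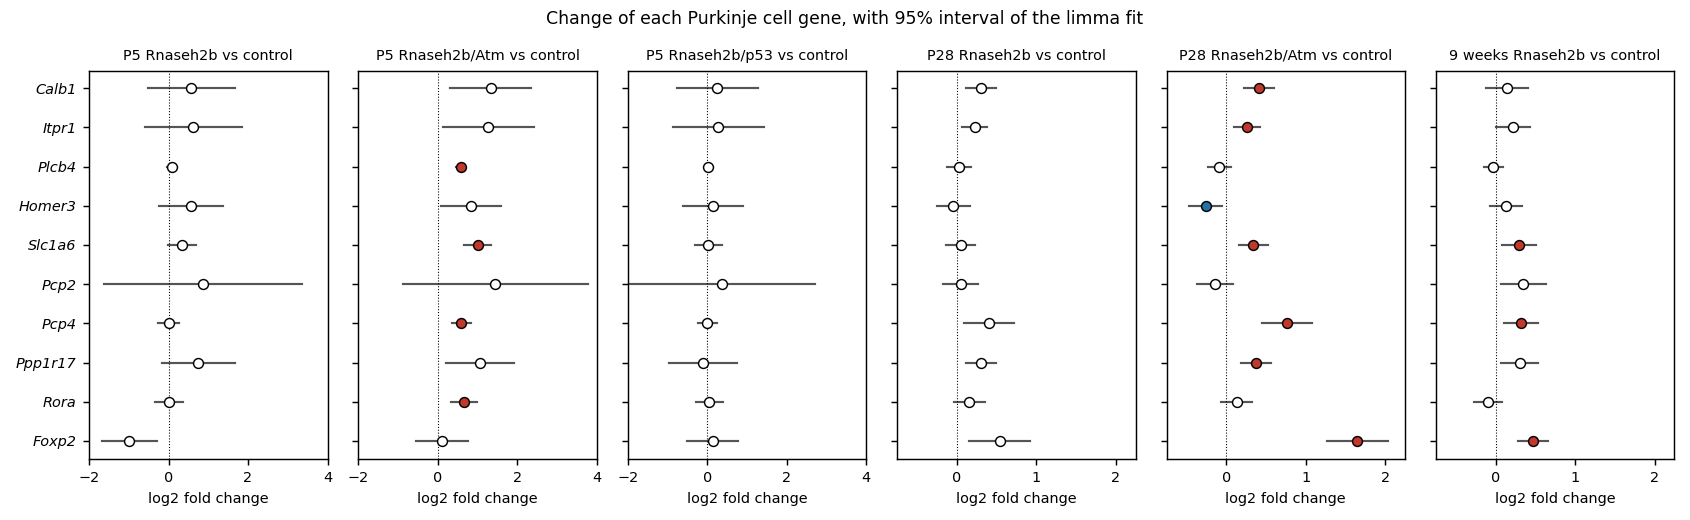
Log2 fold change of each member in 6 comparisons with control, with the 95% interval of the limma fit. Red points rose, blue points fell and open points were not called at an adjusted p of 0.05. Pcp2 has the widest intervals at P5, and Foxp2 the largest change at P28 and 9 weeks.

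At P28 none of the 10 members was called by limma in Rnaseh2b against control, beside 5.21% of the 16530 genes tested. At an unadjusted p under 0.05 there were 5 members, and the share of all genes at that p was not counted. Closest was Calb1, with 9.26, 9.51, 9.23, 9.25 and 9.32 log2 CPM in control and 9.84, 9.52, 9.53, 9.48 and 9.75 in Rnaseh2b. Only Control 2 reached into the Rnaseh2b range. The difference was 0.31 ± 0.09 log2 (limma, adjusted p = 0.0505). Ppp1r17 was higher by 0.30 ± 0.09 (adjusted p = 0.0532), Foxp2 by 0.54 ± 0.18 (0.0844), Itpr1 by 0.22 ± 0.08 (0.0893) and Pcp4 by 0.41 ± 0.15 (0.106). The other 5 lay between -0.04 and 0.16 log2, and for Pcp2 the 95% interval ran from -0.18 to 0.27.

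Several settings moved Calb1 and Ppp1r17 across the threshold. Both were called on either FPKM scale, with weights from recovered reads and with only these groups in the fit. Without Control 2, whose Calb1 and Ppp1r17 were the highest of the controls, 3 members were called, Pcp4 being the added gene. Without Rnaseh2b 4 only Calb1 was called, and without Rnaseh2b 5 only Foxp2, at 0.77 ± 0.12 log2 (limma, adjusted p = 0.00208). Libraries labelled Atm had no called member against control (limma, 2 at an unadjusted p under 0.05, 0 with voom), beside 1.86% of genes, and their largest differences were Pcp4 at 0.42 ± 0.15 and Foxp2 at -0.39 ± 0.18 log2. Without Control 2 or without Atm 3, Pcp4 was called there. The share of all genes called in these other fits was not counted.

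**Figure D3:**
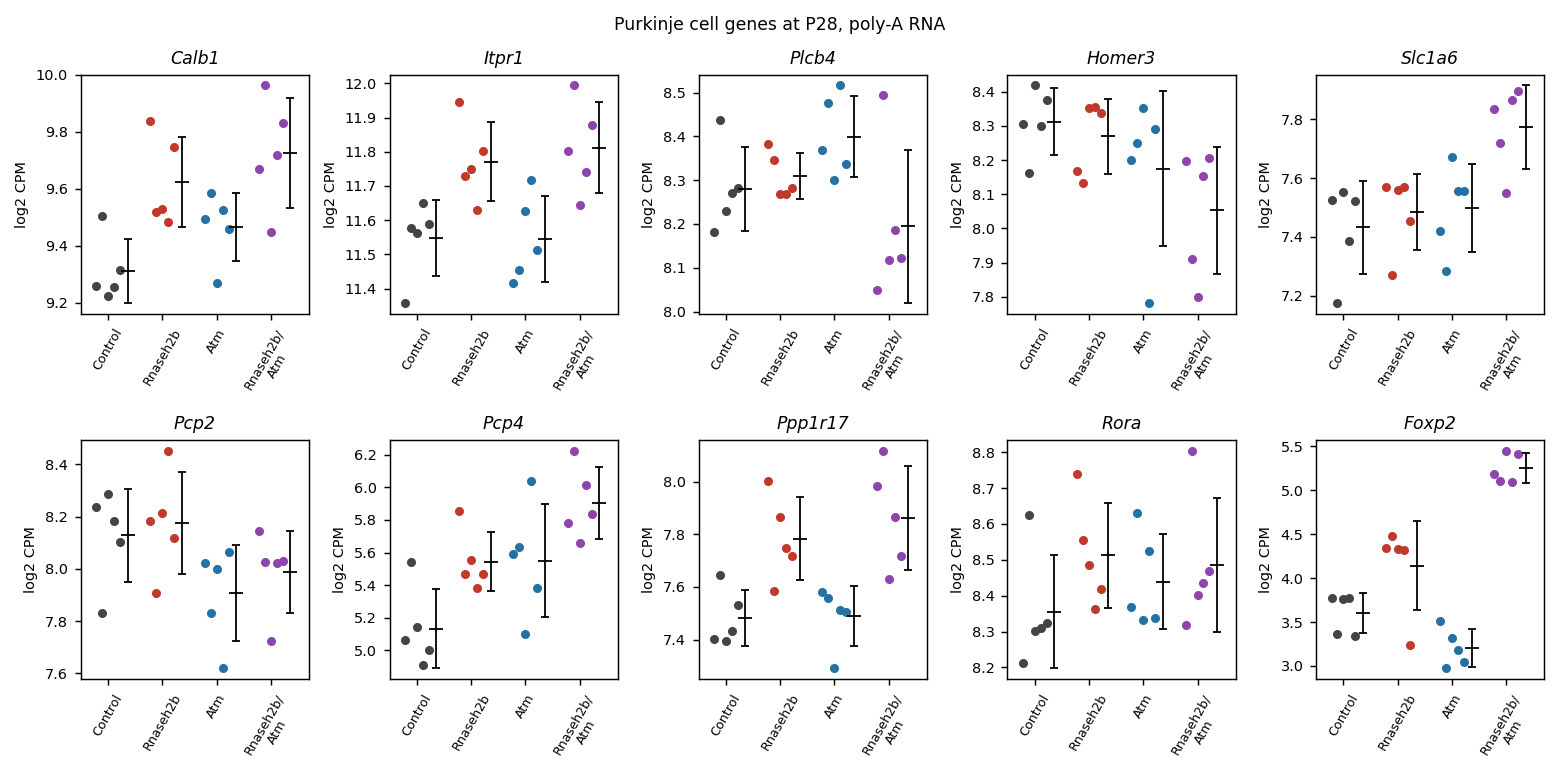
Values of the 10 members in each P28 library, in log2 CPM, with 1 panel per gene and its own axis. Points are libraries and bars the group mean and SD. Foxp2 is the gene in which Rnaseh2b/Atm stands wholly apart from the other 3 groups, while Pcp2, Plcb4, Rora and Homer3 overlap between groups.

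In the P28 Rnaseh2b/Atm cerebellum 6 members rose against control and 1 fell, so 7 of 10 were called. This is near the background, since 63.6% of all tested genes were called in that comparison, 31.5% higher and 32.1% lower. The members' median was 0.30 log2, beside -0.02 over all genes. Among the calcium signalling members Calb1 rose by 0.41 ± 0.09 log2 (limma, adjusted p = 0.000569), from the control values above to 9.67, 9.96, 9.45, 9.72 and 9.83 log2 CPM. Itpr1 rose by 0.26 ± 0.08, Slc1a6 by 0.34 ± 0.09 and Ppp1r17 by 0.38 ± 0.09. Homer3 fell by 0.26 ± 0.10, while Plcb4 (-0.09 ± 0.07) and Pcp2 (-0.14 ± 0.11) were not called. These changes were small, and each of these groups overlapped with control.

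Pcp4 measured 5.07, 5.54, 5.15, 4.91 and 5.0 log2 CPM in control and 5.78, 6.22, 5.66, 6.01 and 5.84 in Rnaseh2b/Atm. It rose by 0.77 ± 0.15 log2 (limma, adjusted p = 0.000198), with no overlap. Pcp4 was likewise high in some libraries labelled Atm, where it measured 5.10 to 6.04, and the rise over these was 0.35 ± 0.15 (limma, adjusted p = 0.0489). Rora, at 0.13 ± 0.09 over control, was not called at this age.

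Foxp2 changed most. It measured 3.78, 3.36, 3.76, 3.78 and 3.34 log2 CPM in control, 3.51, 2.97, 3.32, 3.19 and 3.05 in libraries labelled Atm, 4.34, 4.48, 4.33, 4.32 and 3.24 in Rnaseh2b and 5.19, 5.11, 5.45, 5.09 and 5.42 in Rnaseh2b/Atm. Every Rnaseh2b/Atm library was above every other library, and Rnaseh2b 5 lay below its group, in the control range. The rise over control was 1.65 ± 0.18 log2 (limma, adjusted p = 2.86e-07). Over libraries labelled Atm it was 2.04 ± 0.18, and over Rnaseh2b it was 1.11 ± 0.18. Only Pcp4 and Foxp2 were free of overlap with control, beside 45.6% of all tested genes.

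The effect of Rnaseh2b deletion on Foxp2 was larger by 1.5 ± 0.26 log2 in the libraries labelled Atm than in the others (limma interaction, adjusted p = 0.000204). It was the 1 member of 10 called for this difference, beside 37.7% of all tested genes. For Calb1 the same difference was -0.05 ± 0.13, with a 95% interval from -0.32 to 0.22. Plcb4 (-0.24 ± 0.10, limma adjusted p = 0.0691) passed only without Control 2, without Rnaseh2b/Atm 2 or with the replicate number as a block. Against libraries labelled Atm 7 members of Rnaseh2b/Atm were called, 6 higher and Plcb4 lower by -0.21 ± 0.07, beside 61.0% of genes. Against Rnaseh2b 2 rose, Foxp2 and Slc1a6 (0.29 ± 0.09), beside 49.5% of genes.

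Midbrain markers moved with Foxp2. All 6 tested members of the midbrain list rose in P28 Rnaseh2b/Atm against control, beside 31.5% of all genes called higher. Among them were Th, the enzyme of dopamine synthesis, by 7.10 ± 0.23 log2 and Pou4f1 by 5.02 ± 0.69. Their summed level was 502 to 638 CPM there, 19.6 to 28.4 in control, 22.3 to 40.3 in Rnaseh2b and 14.2 to 23.5 in libraries labelled Atm. The list mean was -0.64 log2 CPM in Rnaseh2b 5 and 0.80 to 1.80 in the other 4 Rnaseh2b libraries, the same split as for Foxp2. The part of midbrain RNA in the Foxp2 values was not tested.

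All 7 granule neuron markers fell in P28 Rnaseh2b/Atm against control, with a median of -1.79 log2, and their summed level was 1240 to 2638 CPM against 5502 to 6304. All 6 microglia markers rose, with a median of 0.80 and summed levels of 122 to 160 CPM against 78.5 to 85.1. Of 6 oligodendrocyte markers 5 fell and 1 rose (2748 to 8167 CPM against 7898 to 8628). Of 7 molecular layer interneuron and Golgi markers 3 rose and 4 fell (862 to 979 CPM against 667 to 712), and of 6 Bergmann glia and astrocyte markers 2 rose and 2 fell (1832 to 2389 CPM against 2168 to 2601). These counts stand beside 63.6% of all tested genes called in that comparison, 31.5% higher and 32.1% lower. The part of these shifts in the members' rises was not tested.

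**Figure D4:**
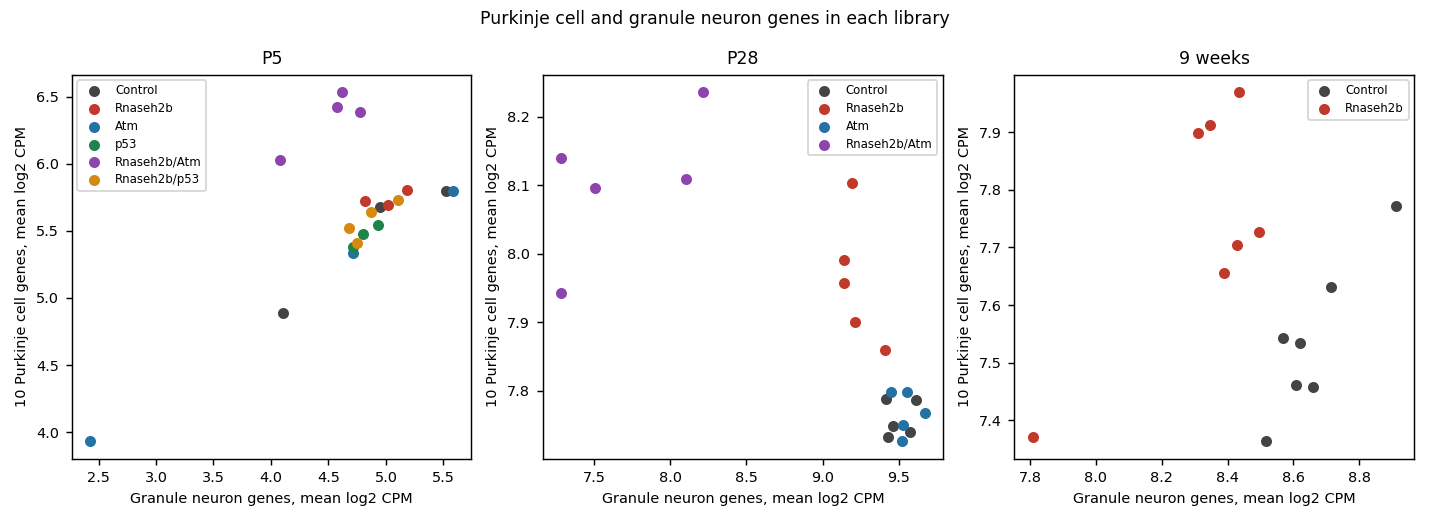
Mean log2 CPM of the 10 members (vertical axis) against the mean of 7 granule neuron markers (horizontal axis) in each library, with 1 panel per age. At P28 the Rnaseh2b/Atm libraries lie far to the left, at 7.29 to 8.21 against 9.41 to 9.61 in control, and higher, at 7.94 to 8.24 against 7.73 to 7.79. At P5 Control 2 and Atm 1 are low on both axes.

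Of the other Purkinje cell genes, 24 were tested at P28 in Rnaseh2b/Atm against control, and 9 rose and 6 fell, with a median of -0.01 log2. These 15 calls are near the background of 63.6% of all genes. The neurofilament Nefh rose by 1.32 ± 0.08 log2 (limma, adjusted p = 7.0e-11), Shh by 1.17 ± 0.10, Ebf2 by 1.22 ± 0.12 and the G protein regulator Rgs8 by 0.58 ± 0.08. The calcium channel Cacna1a fell by 0.85 ± 0.08 and the phospholipase Plcb3, the counterpart of Plcb4 in other Purkinje cell stripes, by 0.89 ± 0.10. In Rnaseh2b against control, where 5.21% of all genes were called, 3 rose, Nefh (0.39 ± 0.08), Ebf2 (0.49 ± 0.12) and Shh (0.36 ± 0.10), and Cacna1a fell by 0.31 ± 0.08. Several of these genes, Cacna1a and Nefh among them, are also expressed by other neurons.

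At 9 weeks 3 of the 10 members rose in Rnaseh2b against control, Foxp2, Pcp4 and Slc1a6, beside 20.2% of the 15078 genes tested (10.6% higher). The share is thus not far above the background. None fell, and the median was 0.26 log2, beside 0.00 over all genes. Foxp2 ran from 4.21 through a median of 4.60 to 4.77 log2 CPM in control and from 4.86 through 4.99 to 5.13 in Rnaseh2b. All 7 Rnaseh2b libraries lay above all 7 controls, the 1 member without overlap, beside 4.34% of tested genes. It rose by 0.47 ± 0.09 log2 (limma, adjusted p = 0.0029).

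Pcp4 ran from 4.71 through 4.95 to 5.14 log2 CPM in control and from 4.94 through 5.14 to 5.59 in Rnaseh2b, a rise of 0.32 ± 0.10 (limma, adjusted p = 0.0326). Slc1a6 ran from 6.11 through 6.43 to 6.52 in control and from 6.19 through 6.64 to 7.01 in Rnaseh2b, a rise of 0.29 ± 0.10 (limma, adjusted p = 0.0486). With a term for the 2 sets of label codes (11 to 16 and 50 to 58), Slc1a6 was no longer called (limma, adjusted p = 0.0627), which leaves 2 called members, Foxp2 and Pcp4. The groups overlapped for Pcp4 and Slc1a6. Rnaseh2b 3 was the lowest Rnaseh2b library for all members but Foxp2. Pcp2 (0.35 ± 0.13, adjusted p = 0.0756), Ppp1r17 (0.30 ± 0.11, 0.0607) and Itpr1 (0.22 ± 0.10, 0.137) were not called. Calb1 and Homer3 differed by 0.15 ± 0.12 and 0.14 ± 0.10, Plcb4 by -0.03 ± 0.06 and Rora by -0.09 ± 0.08.

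**Figure D5:**
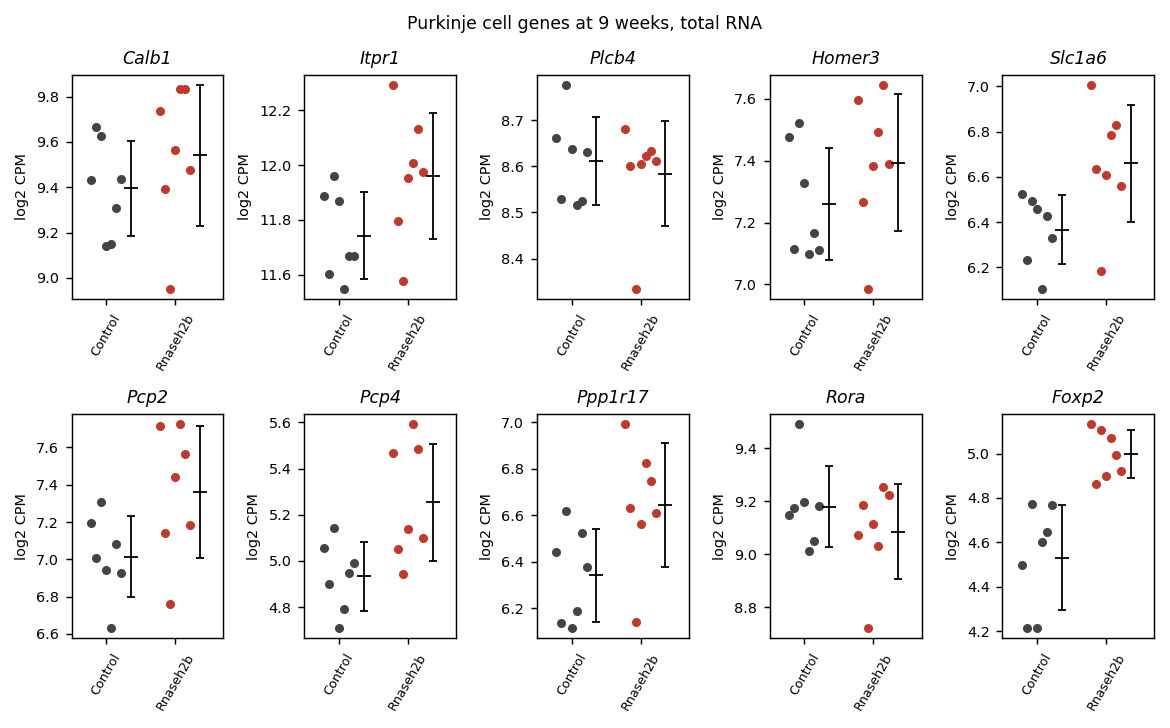
Values of the 10 members in each 9-week library, in log2 CPM, with 1 panel per gene and its own axis. Points are libraries and bars the group mean and SD. Foxp2 separates the groups, and for the other 9 genes the ranges overlap.

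The 9-week libraries fall into 2 sets by label code, 11 to 16 and 50 to 58, between which the deposited values have equal means for every gene. Within neither set was a member called (limma, 1 and 8 members at an unadjusted p under 0.05). The share of all genes at that unadjusted p was not counted. In the second set all 10 members were higher in Rnaseh2b, with a median of 0.38 log2, and in the first 6 were, with a median of 0.05. Foxp2 differed by 0.54 ± 0.14 and 0.41 ± 0.11 in the first and second set (limma, adjusted p = 0.052 and 0.113). Pcp4 differed by 0.12 ± 0.14 and 0.47 ± 0.12, Slc1a6 by 0.19 ± 0.18 and 0.37 ± 0.09, and Calb1 by -0.21 ± 0.18 and 0.42 ± 0.10. Rnaseh2b 3 belongs to the first set, and without it 5 members were called, Pcp2 (0.45 ± 0.11) and Ppp1r17 (0.39 ± 0.09) being added. Without Control 2, 4 or 5 or Rnaseh2b 1, 5 or 6, 1 member was called. The share of all genes called was not counted for these fits, nor for the fit with a term for the sets. The 20.2% above belongs to the fit of all 9-week libraries without that term.

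Of the 24 other Purkinje cell genes tested at 9 weeks 4 rose and none fell, beside 20.2% of all genes called (10.6% higher). Among the risen genes were Ebf2 (0.49 ± 0.07 log2, limma adjusted p = 0.00065), Nefh (0.40 ± 0.12) and Shh (0.39 ± 0.12). Of 7 granule neuron markers 3 fell, with a median of -0.37, and their summed level was 1966 to 3122 CPM against 3331 to 4256 in control. Of 6 microglia markers 5 rose, with summed levels of 88.1 to 122 CPM against 70.0 to 83.1. Of 3 midbrain markers tested 2 rose, and the list's summed level was 24.1 to 35.7 CPM in Rnaseh2b against 18.9 to 24.0 in control. Of 6 Bergmann glia and astrocyte markers 3 rose and none fell, with a median of 0.26 log2, equal to that of the members, and summed levels of 1703 to 2177 CPM against 1723 to 2093. Of 6 oligodendrocyte markers 4 rose (2911 to 4936 CPM against 2412 to 3278), and of 7 molecular layer interneuron and Golgi markers 2 rose and 3 fell (376 to 459 CPM against 411 to 509). The part of these in the members' rises was not tested.

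How far the members moved together differed between the ages. Each member was correlated over libraries with the mean of the other 9, as a description, since libraries share genotype and preparation. Over the 20 P5 libraries r was 0.68 to 0.99 for 9 members and -0.25 for Foxp2. Without Control 2 and Atm 1 (n = 18) it was 0.79 to 0.97 for those 9 and -0.12 for Foxp2. With group means removed it was 0.27 for Plcb4 and 0.69 to 0.99 for the other 8.

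Over the 20 P28 libraries Ppp1r17 (r = 0.87), Calb1 (0.78), Itpr1 (0.78) and Pcp4 (0.63) followed the rest. Pcp2 (-0.01), Plcb4 (-0.28) and Homer3 (-0.45) did not. With group means removed r was 0.65 for Ppp1r17, 0.53 for Calb1, 0.43 for Itpr1 and 0.36 for Pcp4, beside 0.44 for Rora, 0.43 for Plcb4, 0.09 for Slc1a6, 0.01 for Pcp2 and -0.25 each for Foxp2 and Homer3. Pcp2 and Homer3 went with each other at 0.74. Over the 14 libraries at 9 weeks r ran from 0.31 for Rora to 0.95 for Pcp2, with Foxp2 at 0.47, and with group means removed Foxp2 was lowest at 0.19.

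Genes outside the list that were most like the member mean were ranked by Pearson r over all libraries of an age. At P5 (n = 20) they were Car8, which binds the inositol trisphosphate receptor (r = 0.99), Col23a1, Itpka, an inositol trisphosphate kinase, Smpx and Gdf10, with r of 0.98 for each of the last 4. At P28 (n = 20) they were Dpp10 (r = 0.95), Cds1, Inpp5a, an inositol phosphatase, Ppp1r16b and Fam70a (0.94). At 9 weeks (n = 14) they were Eps8l2 and Car8 (0.93 each), Cep76, Cep72 and A2m (0.92 each). Car8 was the 1 gene named at more than 1 age. Car8, Itpka and Inpp5a were also in the lists of other Purkinje cell genes, and Gdf10 was in the Bergmann glia and astrocyte list.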

How the data were processed

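RNA of whole mouse cerebellum was sequenced (TruSeq stranded kit, per the labels' protocols). The submitters' processing notes name Trim Galore, STAR, BWA, HTSeq, limma and build mm9; roles and versions are not given in the sources used here. The authors deposited log2 CPM values per gene and FPKM values. At 9 weeks the deposited log2 CPM have equal means for every gene in the libraries with label codes 11 to 16 and 50 to 58, as removal of a difference between these sets leaves them, and the deposited FPKM there, on an otherwise shifted scale, fall below 0 for some genes. Whole reads were recovered from the P5 and P28 values (at least 99.98% whole within 0.01 read), which gave the depths; depth at 9 weeks is unknown. At P5, 3 rows that name no gene held 19.7% to 31.8% of reads and were left out. All columns were mapped to samples (0 unmapped).

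Genes that reached 1 CPM in 3 libraries at P5, 5 at P28 or 7 at 9 weeks, the size of the smallest group, were tested with limma 3.58.1 (R 4.3.3, trend on the mean) on log2 CPM, with all groups of an age in 1 fit. P-values were Benjamini-Hochberg adjusted over all tested genes, and a change was called at an adjusted p under 0.05; ± after a difference is its SE, and after a level the SD. The share of all genes at an unadjusted p under 0.05 was not counted for any comparison. The fit was tested on simulated data. Ages were never joined, and comparisons within an age share libraries. The members and marker lists were chosen with earlier results of these data known. All members are named; other Purkinje cell genes are named if called, up to 6 per comparison by smallest adjusted p (1 gene among these is not reported here), and the most alike genes are the first 5 by r, unnamed gene models passed over. Correlations with group means removed or without the P5 libraries that stand apart were added after seeing the data. Alternatives were other scales (FPKM + 0.1 and + 1), no filter, weights from recovered reads (voom), only the groups compared, a midbrain covariate, a replicate block, the 9-week sets, and each library left out.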

Additional observations from a re-analysis of the deposited data

Results flagged for a closer look

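A library was set apart when its gap to the nearest of its group was large for the group's range; 80 sets of values from groups of 4 to 10 libraries were tested, and chance marks about 5 percent. There were 13 such values. At P5, Rnaseh2b/Atm 4 lay below its group for Pcp2 (5.022 log2 CPM, nearest 5.782), Pcp4 (5.429), Slc1a6 (5.588), Itpr1 (8.927) and Homer3 (4.89). At P28, Pcp2 was low in Rnaseh2b/Atm 3 (7.724), Foxp2 in Rnaseh2b 5 (3.239), Ppp1r17 in Atm 3 (7.291) and Homer3 in Atm 4 (7.782), and Rora was high in Control 2 (8.626). At 9 weeks, Plcb4 (8.334) and Rora (8.722) were low in Rnaseh2b 3, and Rora was high in Control 3 (9.492).

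Foxp2 was also set apart because the effect of Rnaseh2b deletion at P28 differed between the libraries labelled Atm and the others, by 1.502 log2 in the interaction test.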

How the results depend on the processing

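Of 35 called member changes none was reversed. With 1 library left out, 56 of 327 alternatives lost the call, and of 242 other alternatives 23 did. Among changes that were not called, 24 passed under some alternative. In Rnaseh2b/Atm at P5, the 4 called members against control became 1 with only the groups compared, 7 without Control 2 and Atm 1 and 8 with the midbrain covariate, and stayed at 4 with any 1 library left out. Against libraries labelled Atm, 7 became 3 with only the groups compared and 5 to 9 with 1 library left out. Against Rnaseh2b, 4 became 2 on log2(FPKM + 0.1), 6 with only the groups compared, 7 without Control 2 and Atm 1 and 1 to 4 with 1 left out. For Rnaseh2b/p53 against Rnaseh2b, 0 became 1 without Control 2 and Atm 1 and 1 with the midbrain covariate, and 0 to 1 with 1 left out, the range also for Rnaseh2b against control. At P28, Rnaseh2b against control gave 2 calls in place of 0 on log2(FPKM + 0.1), on log2(FPKM + 1), with voom and with only the groups compared, and 0 to 3 with 1 left out. Libraries labelled Atm gave 0 to 1, and the interaction 1 to 2. At 9 weeks, 3 calls became 2 with a term for the sets of label codes, 0 within either set of label codes and 1 to 5 with 1 left out. The share of all genes called under these alternatives was not counted, and the cause of these shifts was not tested. Control 2 and Atm 1 stood apart in the member genes themselves, so the counts without both are not independent of that choice.

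Same-numbered libraries did not deviate together as a whole (median r of 0.07 at P5 and at P28 and -0.10 at 9 weeks). Single pairs ran from -0.58 to 0.55 at P5, -0.59 to 0.45 at P28 and -0.55 to 0.09 at 9 weeks. The medians cannot exclude that some libraries are paired. With the replicate number as a block, the calls were 1 in place of 0 for P28 Rnaseh2b against control, 2 in place of 1 for the interaction and 1 in place of 3 at 9 weeks. The depth at 9 weeks is unknown.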
